A study of Homo sapiens with 6 samples.

Results

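AMP-activated protein kinase (AMPK) was examined through 8 genes: PRKAA1 and PRKAA2 for its catalytic alpha subunits, PRKAB1 and PRKAB2 for its beta subunits, PRKAG1 and PRKAG2 for its gamma subunits, and STK11 and CAMKK2 for the kinases that switch it on. The members were all peak regions that overlapped the span of a gene on the human build hg19 with 5 kb added at both ends. The 8 windows together held 641 kb. They held 111 high-glucose and 127 normal-glucose regions of 5-hydroxymethylcytosine (5hmC), and 108 high-glucose and 98 normal-glucose regions of 5-methylcytosine (5mC), or 444 of the 593403 regions of the 4 lists.

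The cells were A2058, a human melanoma cell line, and all of them carried the genotype TET2WT over-expressing, so no culture without the added TET2 was compared. They grew for 7 days in high glucose or in normal glucose; the glucose concentrations, the number of clones and the TET2 vector are not stated in the labels. DNA was precipitated with an antibody against 5hmC or against 5mC and sequenced, with 1 library per mark and glucose level. Each library has 1 list of narrow peaks, and with no replicate no p-value was computed between the glucose levels. The name given to each peak inside its list holds Ctrl where the sample label says high glucose and Low where it says normal glucose, and the groups follow the sample labels. The lists hold no expression values, so the label of the cell line was not checked against marker genes. Reads were estimated from the background count implied by the listed folds and p-values. The commonest region width stood for the fragment length, on an assumed genome of 2700 Mb. In the 5hmC pair this gave 28.0 M reads with high glucose and 27.5 M with normal glucose. In the 5mC pair it gave 6.14 M and 5.11 M. By this estimate the 5mC lists rest on fewer reads, and within the 5mC pair the high-glucose library was the deeper one. The control and its scaling are not known, so the order of the true depths was not tested.

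AMPK is a heterotrimer that senses a low cellular energy charge. The alpha subunit holds the kinase domain, the beta subunit is the scaffold that also binds glycogen, and the gamma subunit binds the adenine nucleotides. STK11, also called LKB1, phosphorylates the activation loop of the alpha subunit when energy is short, and CAMKK2 does so when calcium rises. TET2 oxidises 5mC to 5hmC, and AMPK is known to phosphorylate and stabilise TET2 when glucose is not in excess. A peak in these assays is a stretch where precipitated fragments pile up. Its fold enrichment is not the methylated share of a cytosine.

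The edge of the gene at its 5' end lay in no region of any of the 4 lists for 7 of the 8 genes, all but CAMKK2. Each list covered only 11.2% to 14.2% of the windows, so a single position often lies in no region of a given list. The cover of the 4 lists joined is higher and is not given here. How often other positions lie in no region of any list was not tested. In the 1 kb just before that edge, 5hmC covered 10.5% in high and 15.5% in normal glucose over the 8 genes. RefSeq promoter sequences on GRCh38 matched all 8 genes, in 12 entries. In the 250 bases before the first start site listed for each gene, the dinucleotide CG, which reads the same on both strands, occurred 25 to 46 times, where the median over 35116 human promoters was 11. The 8 counts are of first starts only, while the promoter entries can hold several starts of a gene, so the sets are not alike. The peaks lie on hg19 and the sequences on GRCh38, and no coordinate was converted, so the letters below describe the promoter and are not aligned to a peak. The sequences of 3 of them are shown, for the gene with the densest peak cover (STK11), the catalytic subunit gene with 5hmC close to both sides of its 5' end (PRKAA2) and the gene with the most regions (PRKAG2). Capitals mark every CG.
STK11, chr19:1205528-1205777, plus strand: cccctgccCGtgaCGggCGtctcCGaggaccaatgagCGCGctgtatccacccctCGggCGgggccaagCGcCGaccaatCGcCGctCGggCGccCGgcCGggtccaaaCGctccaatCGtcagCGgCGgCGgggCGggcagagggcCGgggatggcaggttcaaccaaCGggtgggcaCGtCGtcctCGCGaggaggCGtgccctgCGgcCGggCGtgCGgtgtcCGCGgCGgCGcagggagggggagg
PRKAA2, chr1:56645064-56645313, plus strand: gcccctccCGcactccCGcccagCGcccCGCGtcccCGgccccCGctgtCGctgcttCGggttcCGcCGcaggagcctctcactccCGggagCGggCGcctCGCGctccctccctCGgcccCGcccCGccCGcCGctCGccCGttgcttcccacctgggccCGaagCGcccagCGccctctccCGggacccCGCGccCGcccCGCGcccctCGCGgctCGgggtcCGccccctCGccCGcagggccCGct
PRKAG2, chr7:151877116-151877365, minus strand: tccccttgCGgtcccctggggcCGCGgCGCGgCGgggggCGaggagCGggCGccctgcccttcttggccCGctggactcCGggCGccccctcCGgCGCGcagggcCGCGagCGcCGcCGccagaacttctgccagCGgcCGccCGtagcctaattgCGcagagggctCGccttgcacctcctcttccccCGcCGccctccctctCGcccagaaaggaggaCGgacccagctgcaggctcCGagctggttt
The STK11 promoter held 37 CG, a count reached by 4.00% of all promoters. PRKAA2 held 39, reached by 2.65%, and PRKAG2 held 30, reached by 12.4%. CAMKK2 had the most, 46, reached by 0.413%. PRKAG2 has further start sites inside its long span. The bases before those held 2, 6, 4 and 41 CG, so the entries with few CG were all starts of PRKAG2.

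Around the STK11 5' edge no region of either mark lay within 1898 bp upstream or 3461 bp into the gene. For PRKAG2 the free stretch ran from 549 bp upstream to 4818 bp inside. At PRKAA2 the free stretch was the shortest, 231 bp upstream and 529 bp inside, and both neighbours were 5hmC regions found at both glucose levels. Upstream of it lay chr1:57110459-57110759 in high glucose and chr1:57110123-57110740 in normal glucose, with folds of 3.29 and 2.94. Inside the gene lay chr1:57111746-57112124 in high glucose and chr1:57111519-57112136 in normal glucose, with folds of 4.95 and 4.74. No 5mC region came closer to that edge than 8225 bp. The exception, CAMKK2, had a 5mC region over its 5' edge in high glucose, chr12:121735979-121736722, with a fold of 5.18, a -log10 p of 7.04 and 8 fragments (exact Poisson 95% interval 3.45 to 15.8, covering counting only). Normal glucose had no 5mC region closer than 3837 bp. The RefSeq start of CAMKK2 lies 1110 bp inside the gene edge, so the region was not tied to the promoter letters.

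Seen over all 8 windows, 5hmC regions were somewhat fewer in high glucose and 5mC regions somewhat more, by ratios close to those of the whole lists. The 111 high-glucose and 127 normal-glucose regions of 5hmC give a ratio of 0.874 against 0.911 over all chromosomes. Its counting interval, 0.678 to 1.13, includes both 1 and the ratio of the lists. The interval treats the 2 counts as independent, but 89 of the 111 regions overlap a normal-glucose one. It therefore cannot decide whether the counts differ. The 5mC regions numbered 108 and 98, a ratio of 1.10 against 1.09 over all chromosomes. The counting interval was 0.839 to 1.45, with the same limit. With the backgrounds of both libraries matched and a -log10 p of 10 or more, the 5mC ratio was 0.946. 5hmC regions covered 12.2% of the windows in high glucose, against 14.2% in normal glucose. The ratio of covered length was 0.859, and 0.922 for the lists. 5mC regions covered 12.3% and 11.2%, a ratio of 1.10 against 1.08. Mean widths were close at the 2 glucose levels, 729 and 734 bp for 5hmC and 780 and 782 bp for 5mC. Over the 8 windows together the cover thus followed the number of regions. In single genes it did not always do so. PRKAG1 had 8 5hmC regions in each list but 18.1% cover in high and 24.5% in normal glucose. STK11 had 9 and 6 5mC regions but 45.0% and 45.2% cover.

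The windows were dense in peaks of both marks. The copy number of these genes in A2058 is not known here, and its part in the density was not tested. 5hmC covered 3.90% of all chromosomes in high and 4.23% in normal glucose, and 5mC 2.42% and 2.25%. Per 100 kb the windows held 17.3 and 19.8 5hmC regions, where the lists held 6.49 and 7.13. They held 16.9 and 15.3 5mC regions per 100 kb, where the lists held 3.40 and 3.12. The genes were very unequal in this. STK11, PRKAG2, CAMKK2, PRKAG1 and PRKAB1 lay above the cover of the whole lists for both marks, while PRKAB2 lay below it for both and PRKAA2 only for 5mC. PRKAA1 lay below it for 5hmC and, in normal glucose, for 5mC. The 500 kb on either side of STK11, PRKAG2, CAMKK2, PRKAG1 and PRKAB1 also lay above the lists for both marks, though below the windows. Around PRKAG2, 5hmC covered 10.7% in high and 12.6% in normal glucose, and 5mC 9.04% and 8.66%. The density is thus in part that of the wider stretches.

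**Figure D1:**
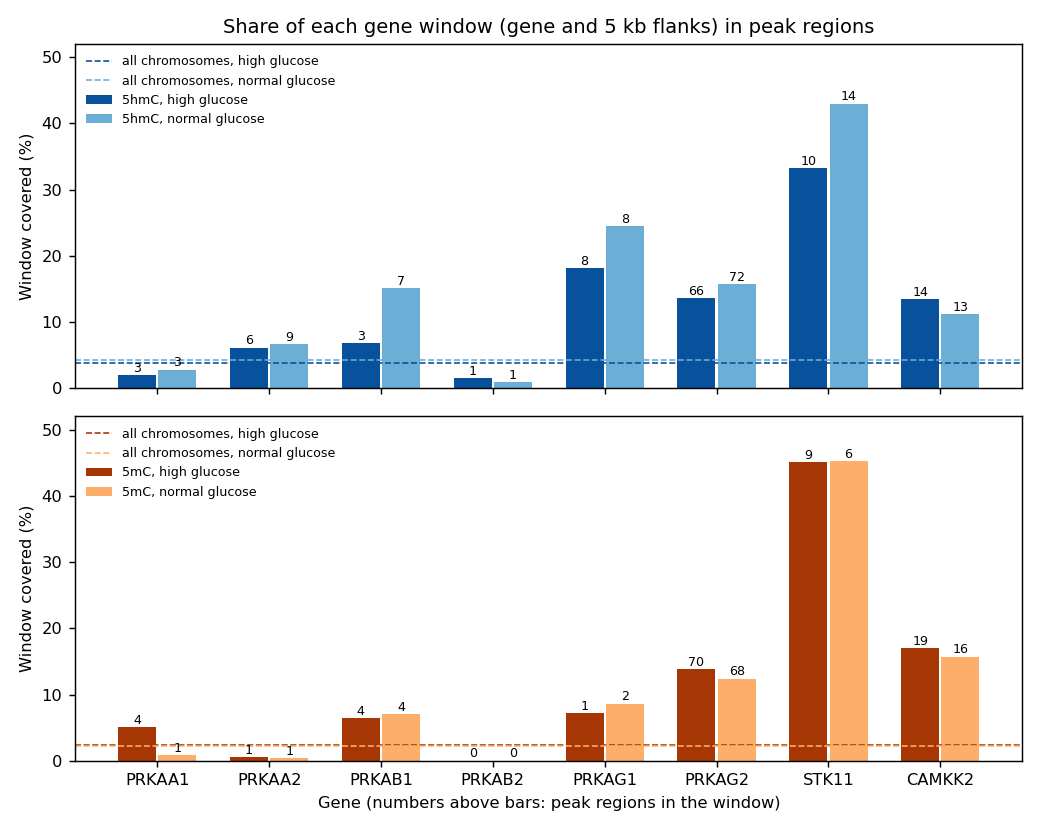
Share of each gene window covered by 5hmC regions (top) and 5mC regions (bottom) in high and normal glucose, in percent, with the number of regions above each bar and 1 library per bar. Dashed lines give the cover of all chromosomes; STK11 reached 33.3% and 43.0% for 5hmC in high and normal glucose, while PRKAB2 had no 5mC region.

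By gene, high glucose had less 5hmC cover in 6 of the 8 windows and more in PRKAB2 and CAMKK2. As a background, 49.6% of the 50 kb windows of the genome that held any 5hmC had less of it in high glucose. Their median cover was only 2.89% in high and 2.80% in normal glucose. The 500 kb on either side of the genes also had less 5hmC cover in high glucose around PRKAA2, PRKAB1, PRKAG1, PRKAG2, STK11 and CAMKK2. High-over-normal ratios there were 0.992, 0.959, 0.934, 0.848, 0.811 and 0.773. Around PRKAA1 and PRKAB2 the ratios were 1.15 and 1.16. For 5mC, high glucose had more cover in 4 genes and less in 3, and PRKAB2 had none. Of all 50 kb windows with any 5mC, 59.4% had more in high glucose. The direction turned under at least 1 other setting in PRKAA1, PRKAA2 and CAMKK2 for 5hmC, and in PRKAA2, PRKAB1 and STK11 for 5mC. Without PRKAG2, whose window is 331 of the 641 kb, the ratio of 5hmC cover was 0.849 and that of 5mC cover 1.08.

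Of the alpha subunit genes, PRKAA2 had few 5mC regions at both glucose levels and PRKAA1 in normal glucose only. In high glucose PRKAA1 held 8.20 5mC regions per 100 kb, above the 3.40 of the whole list. PRKAA1, chr5:40759491-40798297 on the minus strand, encodes the widely expressed alpha subunit. It had 3 5hmC regions in high and 3 in normal glucose, covering 2.04% and 2.85% of its window, and 1 of them was found at both levels. The strongest in high glucose, chr5:40755698-40756023 beyond the 3' end, reached a fold of 5.51 at a -log10 p of 12.6. No normal-glucose 5hmC region lay closer to it than 936 bp. In normal glucose the strongest was chr5:40802101-40802598 upstream of the gene, with a fold of 4.12. PRKAA1 had 4 5mC regions in high and 1 in normal glucose, covering 5.03% and 0.826%. The 3 regions without a partner had 5 to 10 fragments each, with an interval of 1.62 to 11.7 for the lowest (exact Poisson 95%, as for all fragments here). The fourth lay at the 3' flank, chr5:40756381-40757467, and overlapped the only normal-glucose one, chr5:40756235-40756637.

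PRKAA2, chr1:57110990-57181008 on the plus strand, encodes the alpha subunit best known from muscle. Most of its regions were 5hmC. In high glucose 6 and in normal glucose 9 of these covered 6.14% and 6.64% of the window. All 6 of the high-glucose regions were found at both levels. The strongest had its summit 39.4 kb inside the gene. It was a single region in high glucose, chr1:57147956-57150842, with a fold of 8.87 and 37 fragments (26.1 to 51.0). In normal glucose the same stretch was listed as 2 regions, the stronger being chr1:57149285-57151036, with a fold of 5.89 and 27 fragments (17.8 to 39.3). These intervals overlap. Each glucose level had 1 5mC region in the gene, at different places 15839 bp apart, and neither overlapped 5hmC. These covered 0.564% of the window in high and 0.439% in normal glucose. The 500 kb on either side were alike, with 5.33% and 5.37% of 5hmC and 0.624% and 0.439% of 5mC.

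The beta subunit genes differed from each other. PRKAB1, chr12:120105761-120119416 on the plus strand, had 3 5hmC regions in high and 7 in normal glucose, covering 6.87% and 15.2% of the window, the lowest ratio of the 8 genes at 0.453. The 4 normal-glucose regions without a partner had 14 to 20 fragments and folds from 2.77 to 4.18, and the high-glucose region without one, chr12:120107418-120107912, had 17 fragments and a fold of 4.25. None of the 5hmC regions of PRKAB1 reached a -log10 p of 10 in either list. The 5mC signal of PRKAB1 was strong at 1 place, chr12:120109198-120109781 in high glucose, 3.66 kb from the 5' edge. There the high-glucose library had 69 fragments (53.7 to 87.3) and a fold of 37.9, and the normal-glucose library 45 fragments (32.8 to 60.2) and a fold of 26.5. No 5hmC region was listed there at either glucose level. PRKAB1 had 4 5mC regions at each level, covering 6.48% and 7.06%. PRKAB2, chr1:146626685-146644168 on the minus strand, had the fewest. It had 1 5hmC region in each list, at places 13571 bp or more from any partner, and no 5mC region. The one in high glucose, chr1:146624732-146625148, lay beyond the 3' end, with a fold of 3.37. The one in normal glucose, chr1:146639311-146639578 inside the gene, reached a fold of 4.59 at a -log10 p of 10.2.

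Of the gamma subunit genes, PRKAG1, chr12:49396055-49412629 on the minus strand, had its 5hmC near its 2 ends. It had 8 5hmC regions in each list, covering 18.1% in high and 24.5% in normal glucose, and 8 and 7 of them were found at both levels. Upstream of the gene the strongest was chr12:49413324-49413913 in high glucose and chr12:49413305-49413884 in normal glucose, with folds of 6.59 and 6.89 and 29 and 26 fragments. Its 5mC was nearly all in 1 wide region beyond the 3' end, chr12:49390456-49392977 in high and chr12:49390525-49393026 in normal glucose. The folds there were 35.2 and 34.98 and the fragments 65 (50.2 to 82.8) and 56 (42.3 to 72.7), so the 2 libraries were close. 5hmC overlapped it at both levels, in chr12:49391044-49392850 in high glucose and in the 3313 bp region chr12:49390643-49393955 in normal glucose. DDN and KMT2D lie within 5 kb of PRKAG1 in the RefSeq tables on GRCh38, so a flank region need not belong to PRKAG1.

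PRKAG2, chr7:151253201-151574316 on the minus strand, is the longest of the genes, 321 kb, and held more regions than the other 7 together. It had 66 and 72 5hmC regions in high and normal glucose, and 70 and 68 5mC regions. 5hmC covered 13.6% and 15.8% of its window and 5mC 13.8% and 12.4%. The strongest 5mC region of all 8 genes lay 274 kb inside it. This was chr7:151299889-151300507 in high glucose, with a fold of 43.4 and 85 fragments (67.9 to 105), and chr7:151299716-151300511 in normal glucose, with a fold of 52.7 and 87 fragments (69.7 to 107). It ranked 1229 and 421 by -log10 p within its list, and 5hmC overlapped it at both levels. The strongest 5hmC region of the 8 genes also lay in PRKAG2, 34.6 kb inside. It was chr7:151538338-151539987 in high glucose, with a fold of 14.2 and 70 fragments (54.6 to 88.4), and chr7:151538354-151539954 in normal glucose, with a fold of 11.5 and 50 fragments (37.1 to 65.9).

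Along PRKAG2 the 5hmC difference was not even. From 150 to 200 kb inside the gene, 5hmC covered 18.5% in high glucose, against 28.4% in normal glucose, and in the 50 kb before that it covered 12.9% and 19.1%. From 50 to 100 kb the order was the other way, 21.1% and 18.7%, and from 250 to 300 kb it was 10.03% and 8.92%. 5mC was at 13.6% and 14.2% from 150 to 200 kb, and its widest gap lay from 250 to 300 kb, with 14.0% and 9.99%. The last 21 kb had no 5hmC cover in either list but 8.38% and 8.85% of 5mC.

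**Figure D2:**
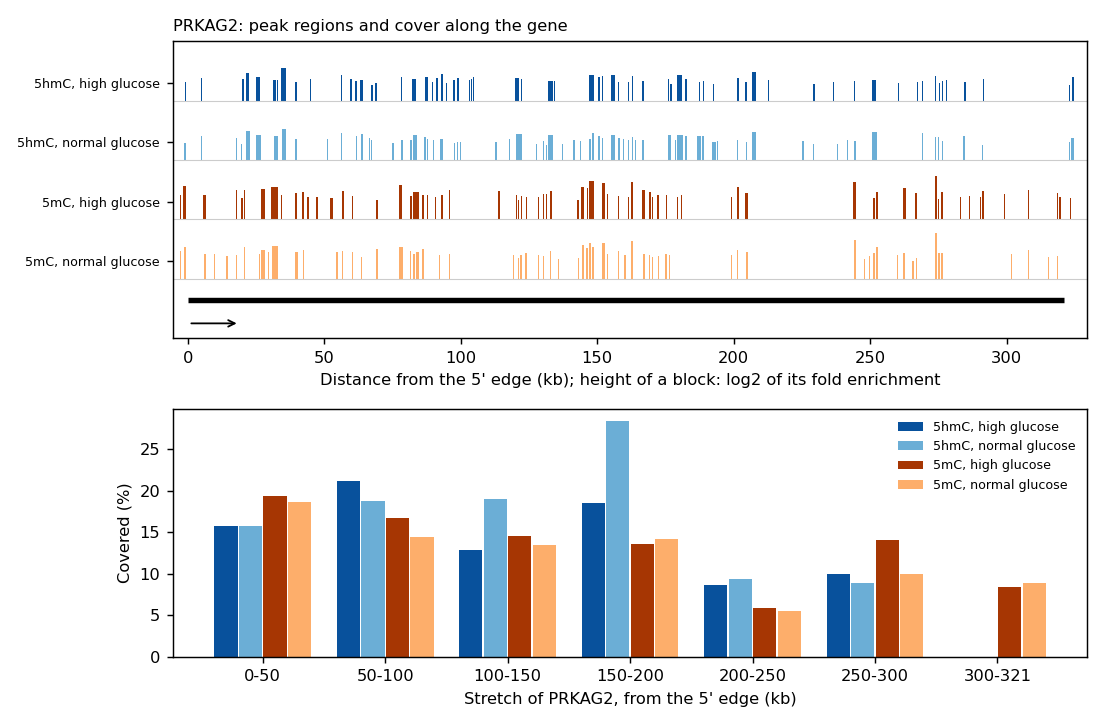
Top, peak regions along PRKAG2 by distance from its 5' edge in kb, with block height the log2 of the fold enrichment. Bottom, percent of each stretch covered in the 4 libraries; from 150 to 200 kb 5hmC had 18.5% in high and 28.4% in normal glucose. In the last stretch, only 5mC was listed.

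STK11, chr19:1205798-1228434 on the plus strand, was the most densely covered of the 8 genes. 5hmC regions, 10 in high and 14 in normal glucose, covered 33.3% and 43.0% of its window. 5mC regions, 9 and 6, covered 45.0% and 45.2%. One of the 9, chr19:1209259-1209912, had no normal-glucose 5mC region closer than 974 bp and was weak, with a fold of 3.45 and 5 fragments (1.62 to 11.7). High glucose had 3 separate 5mC regions at the 3' end, the strongest being chr19:1225951-1229536, with a fold of 28.8 and 49 fragments (36.3 to 64.8). All 3 overlapped a single normal-glucose region of 7883 bp, chr19:1223685-1231567, with a fold of 29.1 and 46 fragments (33.7 to 61.4). All 10 of the high-glucose 5hmC regions were found at both levels, and the strongest, chr19:1213343-1214529, had a fold of 7.44 and 29 fragments. The same place in normal glucose, chr19:1213315-1214603, had a fold of 6.31 and 29 fragments. The 3 normal-glucose 5hmC regions without a partner lay 11726 to 18860 bp inside the gene and had 12 to 20 fragments. STK11 sits in a stretch of chromosome 19 rich in both marks. In the 500 kb on either side of its window 5hmC covered 22.5% in high and 27.7% in normal glucose, and 5mC 36.7% and 34.04%.

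CAMKK2, chr12:121675497-121736111 on the minus strand, was 1 of the 2 genes with more 5hmC cover in high glucose, 13.5% against 11.2% in normal glucose, from 14 and 13 regions. Its surroundings went the other way, with 7.58% in high and 9.81% in normal glucose. The ratio of covered length was 1.20, and it turned to 0.855 when weaker regions, under a -log10 p of 10, were dropped. Among those stronger regions were 2 listed in high glucose alone, chr12:121684786-121685604 with a fold of 6.21 and chr12:121731462-121731858 with a fold of 4.85, and 1 listed in normal glucose alone, chr12:121686447-121686777, with a fold of 5.31. The first and the third of these lay 843 bp apart, about 50 kb inside the gene. 5mC covered 17.0% and 15.7%, from 19 and 16 regions. The strongest lay near the 3' end, chr12:121677970-121679567 in high glucose with a fold of 38.5 and 75 fragments (59.0 to 94.0), and chr12:121678036-121679717 in normal glucose with a fold of 29.4 and 49 fragments (36.3 to 64.8). 5hmC overlapped it at both levels with folds of 3.87 and 3.57. In normal glucose alone a 5mC region stood 12.3 kb inside the gene, chr12:121723347-121723767, with a fold of 9.78 and 16 fragments.

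**Figure D3:**
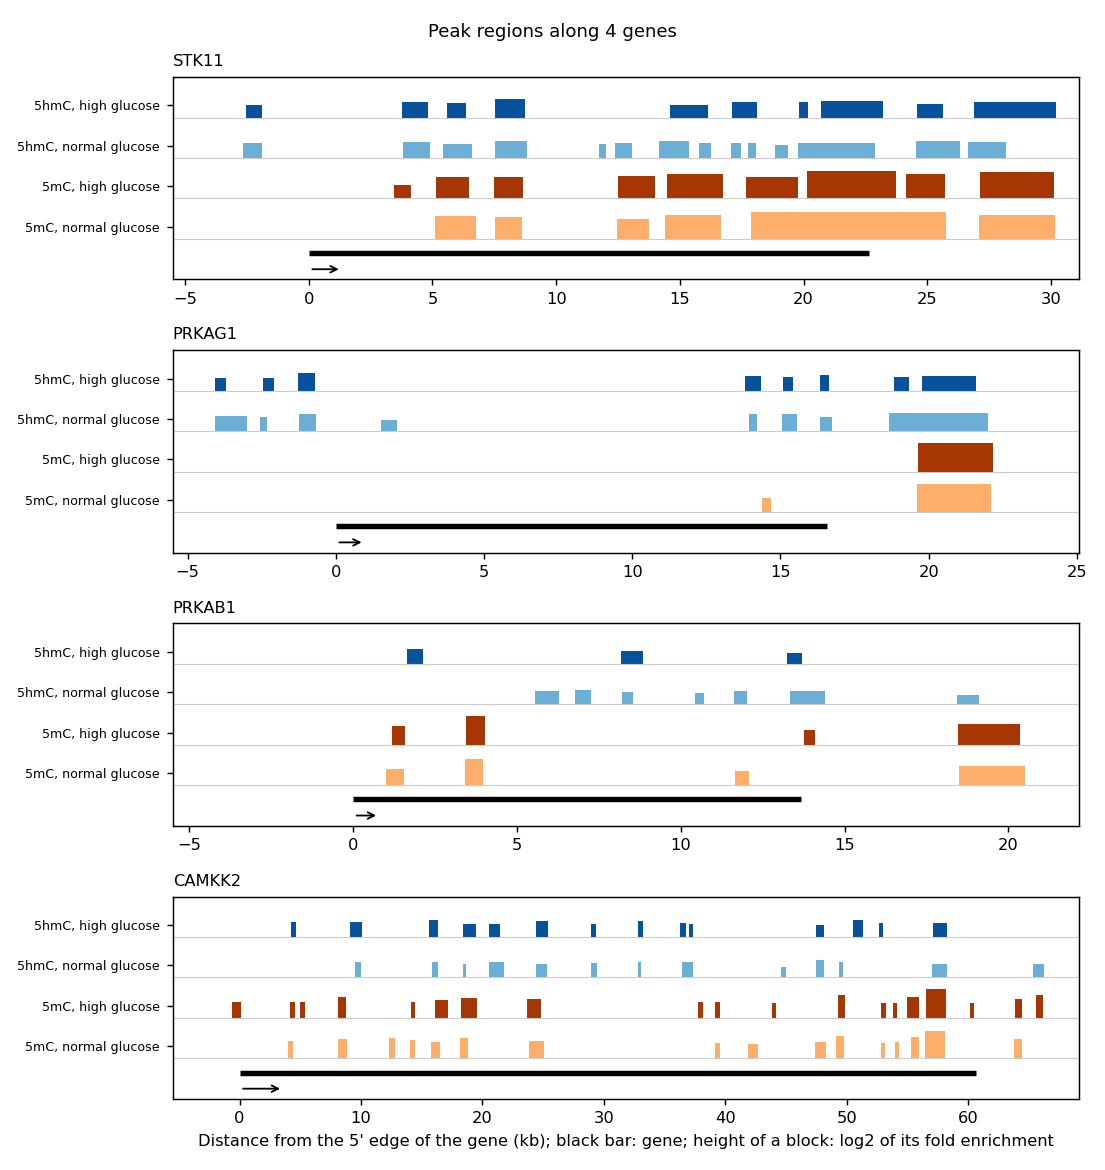
Peak regions in the 4 libraries along STK11, PRKAG1, PRKAB1 and CAMKK2, by distance from the 5' edge in kb, with block height the log2 of the fold enrichment and the gene as a black bar. The wide 5mC block at the 3' end of STK11 was 3 regions in high and 1 in normal glucose, and the PRKAG1 body held no 5mC region in high glucose.

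Most regions were found at both glucose levels. In the 5hmC lists 89 of 111 high-glucose regions (80.2%, Wilson 95% interval 71.8 to 86.5) overlapped a normal-glucose region, and 90 of 127 normal-glucose regions (70.9%, 62.4 to 78.1) overlapped a high-glucose one. In the 5mC lists the shares were 76 of 108 (70.4%, 61.2 to 78.2) and 75 of 98 (76.5%, 67.2 to 83.8). When 50% of both regions had to overlap, the 5hmC shares came to 53.2% for high and 46.5% for normal glucose. Regions with no partner were thus 19.8% and 29.1% of the 5hmC members in high and normal glucose, near the 24.1% and 31.2% of all regions in those lists. For 5mC they were 29.6% and 23.5%, near 28.3% and 21.5%. The members without a partner were weaker. Their median -log10 p was 8.51 and 6.31 for 5hmC in high and normal glucose, where members found at both levels had 9.18 and 10.8. For 5mC it was 6.99 and 7.57, where members found at both levels had 15.8 and 14.1. Listing at 1 glucose level alone does not show a difference, since a partner may lie just below the threshold of the other list.

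Among the 5hmC members without a partner, 8 of 22 in high glucose (36.4%) reached a -log10 p of 10 and 3 of 37 in normal glucose (8.11%). Over all 5hmC regions without a partner, 20.5% of the high-glucose list did so and 11.6% of the normal-glucose list. For 5mC 3 of 32 members in high glucose (9.38%) and 3 of 23 in normal glucose (13.0%) did, where the lists had 12.8% and 10.1%. PRKAG2 held 5 of the 8, all 3 of the high-glucose 5mC ones and 2 of the 3 normal-glucose 5mC ones. Its strongest in 5mC was chr7:151460016-151460528 in high glucose, with a fold of 9.42, 19 fragments and no normal-glucose 5mC region closer than 4886 bp. In 5hmC it was chr7:151469334-151469637 in high glucose, with a fold of 5.29, 25 fragments and no partner closer than 4691 bp. In normal glucose PRKAG2 had the 5mC regions chr7:151544504-151545000 and chr7:151519340-151519841, with folds of 7.86 and 7.61, and the 5hmC region chr7:151414453-151414817, with a fold of 4.43.

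The marks often met in these windows. Of the 5mC regions, 52 of 108 in high glucose (48.1%, 39.0 to 57.5) and 44 of 98 in normal glucose (44.9%, 35.4 to 54.8) overlapped a 5hmC region of the same glucose level, where the shares of the whole lists were 32.2% and 39.7%. In high glucose the interval lies above the share of the list, and in normal glucose it includes it. Both intervals treat regions as independent draws, but 70 of the 108 and 68 of the 98 lie in PRKAG2 alone. They therefore cannot decide whether the windows differ from the lists. The intervals of the 2 glucose levels overlap. Their order turned when regions under a -log10 p of 10 were dropped (22.8% in high and 30.4% in normal glucose), when 50% of both regions had to overlap (22.2% and 25.5%) and when PRKAG2 was left out (44.7% and 50%). Most of the overlap lay in 3 genes. In STK11 8 of 9 high-glucose and 6 of 6 normal-glucose 5mC regions carried 5hmC, in PRKAG2 35 of 70 and 29 of 68, and in CAMKK2 7 of 19 and 6 of 16. In PRKAA1 and PRKAA2 none did. How far the dense cover of the windows by itself gives such overlap was not tested.

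When touching regions of the 4 lists were joined, the windows held 202 places. All 4 lists were present at 32 of them, or 15.8%, where the share over all chromosomes was 7.41%. 5hmC at both glucose levels without any 5mC was found at 38, or 18.8%, against 33.97% over all chromosomes. 5mC at both levels without 5hmC was found at 28, or 13.9%, against 11.3%, and 75 places, or 37.1%, came from 1 list only, against 40.9%. STK11 had all 4 lists at 5 of its 9 places and PRKAG2 at 20 of its 125, among them the place upstream of its 5' edge, chr7:151574865-151576202. PRKAA2 and PRKAG1 were mostly 5hmC alone, at 6 of 10 and 6 of 9 places. 5mC found at both levels had 5hmC in high glucose alone at 5 places, or 2.48%, and in normal glucose alone at 7, or 3.47%. Over all chromosomes these shares were 0.805% and 2.05%. PRKAG2 held 1 place with 5hmC listed only in high and 5mC only in normal glucose, and 1 place the other way round. Each is 0.495% of the 202 places, where all chromosomes had 0.142% and 0.443%. No interval was computed for these small counts.

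Set against the 500 kb on either side, the ratios of PRKAG2 and STK11 were close to those around them. For 5hmC cover, high over normal glucose, PRKAG2 had 0.866 in its window and 0.848 around it, and STK11 had 0.774 and 0.811. PRKAB1 had 0.453 in its window and 0.959 around it, PRKAG1 0.740 and 0.934, and PRKAA1 0.716 and 1.15. The counting intervals of these window ratios were wide, 0.128 to 1.61, 0.288 to 1.90 and 0.165 to 3.10. Each includes the ratio around its window. CAMKK2 and PRKAB2 lay on the other side, with 1.20 in the window and 0.773 around it, and 1.56 and 1.16. Their counting intervals, 0.574 to 2.51 and 0.162 to 14.9, also include the ratios around them. In all, 5 of the 8 genes had a lower 5hmC ratio than their surroundings. The median over the 8 genes was 0.820 in the windows and 0.947 around them. For 5mC the median was 1.08 over the windows of the 7 genes with a ratio, all but PRKAB2, and 1.08 around all 8 genes. PRKAA1 had the highest 5mC ratio, 6.10 in its window and 1.07 around it, from the 4 and 1 regions described above. Its counting interval, 0.917 to 40.6, includes the ratio around it.

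**Figure D4:**
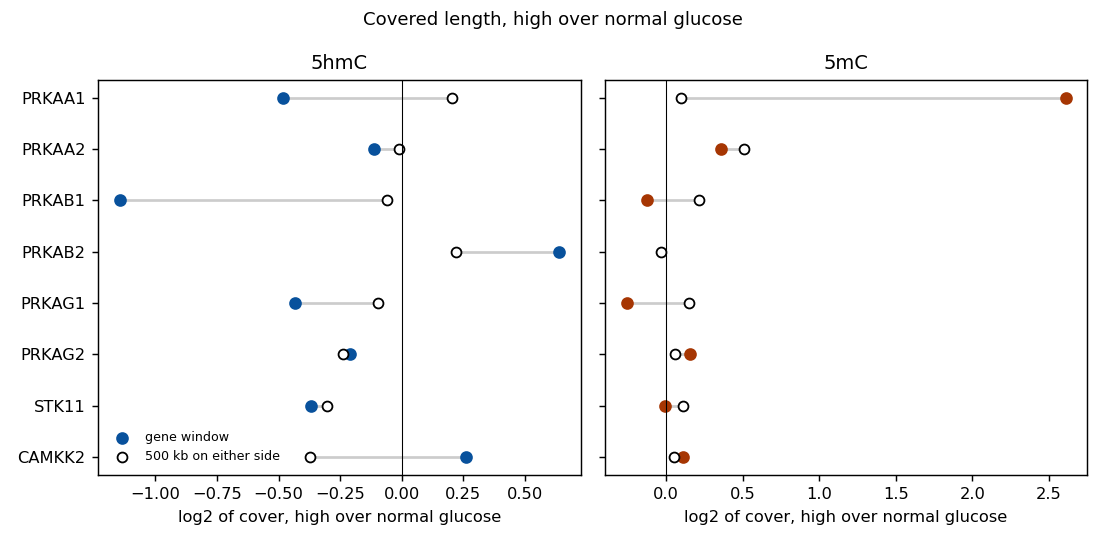
Log2 of the ratio of covered length, high over normal glucose, in each gene window (filled) and in the 500 kb on either side (open), for 5hmC (left) and 5mC (right). PRKAG2 and STK11 lie close to their surroundings in both marks; PRKAB2 has no filled point for 5mC because no region was listed.

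In the first 2 kb inside the 5' edge 5hmC covered 4.51% in high and 6.84% in normal glucose, and 5mC 3.38% and 3.32%. The rest of the gene bodies had 12.4% and 13.9% of 5hmC and 12.6% and 11.6% of 5mC. The 5 kb beyond the 3' ends had 18.1% and 24.4% of 5hmC and 19.6% and 17.3% of 5mC, the highest cover of these positions, and STK11 and PRKAG1 made up most of it. Without STK11 and PRKAG1, a setting chosen after the values were seen, the other 6 genes had 8.37% and 12.2% of 5hmC there. Their 5mC cover there was 9.10% and 4.12%. The values of the gene bodies still include STK11 and PRKAG1, so the 2 sets of values are not compared. The 5 kb upstream had 6.59% and 11.0% of 5hmC and 5.32% and 2.85% of 5mC. From 2 to 3 kb inside the genes no 5mC was listed in either library. Another gene lies within 5 kb of 7 of the 8 genes in the RefSeq tables on GRCh38, all but PRKAG2, so the flanks are described by position only.

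**Figure D5:**
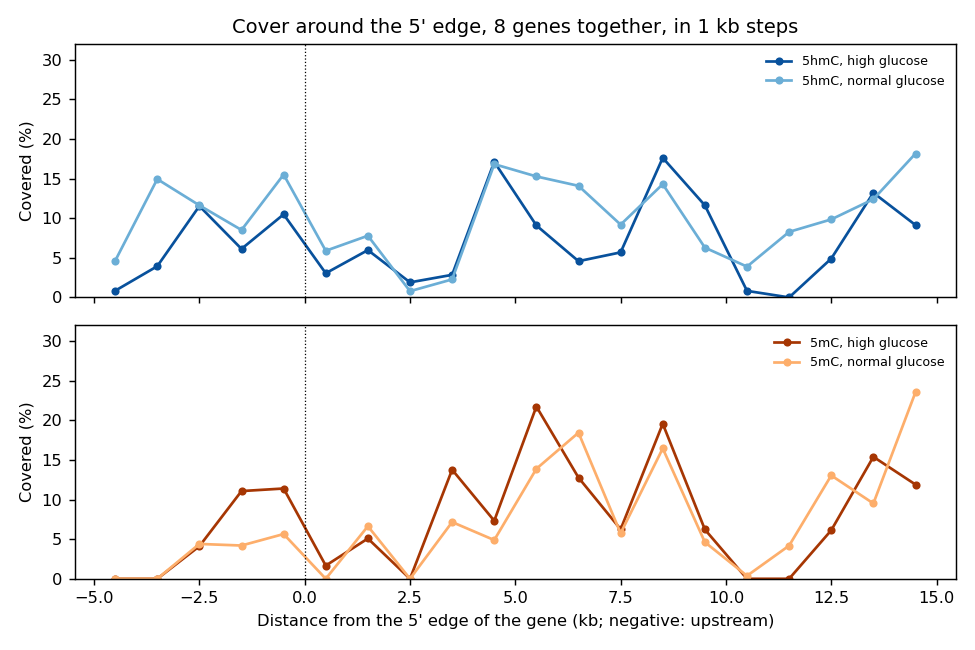
Percent of the 8 genes together covered in 1 kb steps from 5 kb upstream of the 5' edge to 15 kb inside, for 5hmC (top) and 5mC (bottom) in high and normal glucose. In the step from 2 to 3 kb 5hmC covered 1.90% in high and 0.788% in normal glucose and 5mC 0%; each step rests on 0 to 4 genes with cover.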

How the data were processed

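The 4 libraries analysed are immunoprecipitated genomic DNA, 1 per mark and glucose level; the 2 input libraries were not analysed here. The submitters' processing notes name hg19 as the build and, as tools with no roles, Bowtie 1.0.0, CASAVA 1.8.2, bedtools 2.17.0 and SAMtools 0.1.18. The peak caller is not given in the sources used here, nor its control or whether duplicates were removed. The authors deposited 1 narrow peak list per library, called per library. For each region the authors' list gives the summit position, a display score (not used), a fold enrichment (a ratio) and the -log10 of its p-value and of its q-value (q of at most 0.05 in each list). Fold and p stay the authors' values and serve to describe, rank or filter the regions of 1 list.

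Regions on the 22 autosomes and X were kept (80, 82, 14 and 15 on Y and mitochondrial DNA were left out). The members, gene lists and tests were chosen with earlier results of these data known. Gene spans come from the rule that defines the windows, strands and promoters from RefSeq on GRCh38. Regions were shared at an overlap of at least 1 bp, counted with pandas 2.3.3 and NumPy 2.4.6 (Python 3.11.15) and checked against bedtools 2.31.1, with equal counts. Fragments at a summit and the background of each library were worked out from fold and p as whole numbers t with fold (t + 1)/(L + 1), L being the expected count, with a misfit under 1% of the step to the next whole number, and this succeeded for 100% of regions. Overlap, cover and the decoding were tested on simulated data. Wilson intervals of shares, exact Poisson intervals of fragments and the counting intervals of ratios (from the Wilson interval of the high-glucose share of the summed regions; SciPy 1.17.1) are at 95% and cover counting only, because the reads carry no molecular identifiers and need not be independent molecules. With 1 library per group there is no test between groups. Single regions were named by a rule: the strongest and the one nearest the 5' edge in each list and gene, those without a partner that reached a -log10 p of 10, and the 10 widest with both marks, with at most 3 of a kind for genes with over 20 regions. Regions named beside these, as neighbours or partners, were chosen after their values were seen. Alternatives were stricter thresholds, equal numbers of top peaks, other flanks, merging within 500 bp, 50% overlap and matched background. Further genes of the AMPK pathway were not analysed here, as no annotation on hg19 was used.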

Additional observations from a re-analysis of the deposited data

How the results depend on the processing

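No paired analysis was possible because each mark and glucose level has 1 library. Over 70 alternatives for the values of all 8 windows together, 60 stayed within the counting interval and 10 moved outside it. Only ratios were counted for a turn of direction, and 1 turned. Turns in the order of the high- and normal-glucose shares were not counted. Ratios of 5hmC regions, high over normal glucose, stayed between 0.692 and 0.982 and those of 5hmC cover between 0.775 and 0.918. Ratios of 5mC cover stayed between 1.05 and 1.13, while that of 5mC regions was 0.946 with matched background at a -log10 p of 10 or more, and above 1 otherwise. With regions under a -log10 p of 10 dropped, the shares of 5hmC regions found at both levels were 66.7% in high and 59.6% in normal glucose, and the shares of 5mC regions with 5hmC 22.8% and 30.4%. The shares of 5mC regions found at both levels were 77.2% and 75% in that setting. Their order thus turned from 70.4% and 76.5% in the main setting. With 50% overlap of both regions, the shares found at both levels were 53.2% and 46.5% for 5hmC and 59.3% and 64.3% for 5mC, and the shares of 5mC regions with 5hmC 22.2% and 25.5%. Of 81 alternatives for single genes, 11 turned direction. The ratio of PRKAA1 5hmC cover became 1.19 at a -log10 q of at least 2 and with equal numbers of top peaks, and 1.98 without flanks. PRKAA2 5hmC cover became 1.51 with a -log10 p of 10 required and 1.14 with equal numbers, and its 5mC cover 0.560 with 10 kb flanks. PRKAB1 5mC cover became 1.66 with a -log10 p of 10 required and 1.08 with 10 kb flanks. STK11 5mC cover, next to 1 at 0.996, became 1.04 without flanks and 1.08 with regions within 500 bp merged. CAMKK2 5hmC cover became 0.855 with a -log10 p of 10 required, where PRKAG1 5hmC cover moved to 0.267. The cause was not tested. The fewest fragments of any region were 9 in high and 8 in normal glucose for 5hmC, and 4 in each list for 5mC.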
